A study of Rattus norvegicus with 141 samples.

Results

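Aquaporins are membrane channels that let water, and in some cases glycerol and other small neutral solutes, cross cell membranes. The 8 genes described here, Aqp1, Aqp3, Aqp4, Aqp5, Aqp7, Aqp8, Aqp9 and Aqp11, were chosen by gene name from the gene-count tables of 3 rat tissues, in which they were 8 of 30562 genes. Their Ensembl identifiers in the tables are ENSRNOG00000011648 (Aqp1), ENSRNOG00000009797 (Aqp3), ENSRNOG00000016043 (Aqp4), ENSRNOG00000051970 (Aqp5), ENSRNOG00000009686 (Aqp7), ENSRNOG00000014652 (Aqp8), ENSRNOG00000061883 (Aqp9) and ENSRNOG00000013358 (Aqp11). All 8 were listed in every table, and 5 passed the filter on low counts in liver, 7 in stomach and 6 in duodenum. Adult Sprague-Dawley rats of wild-type genotype and both sexes, all fed standard chow, had been given microplastics at 50 mg/kg (high dose), microplastics at 5 mg/kg (low dose) or vehicle (control), and polyadenylated RNA of liver, stomach and duodenum was sequenced. Each combination of tissue, sex and dose had 8 libraries, except female high-dose liver with 6 and female control duodenum with 7. The comparisons ask how the transcripts of these channels differ between dosed and vehicle rats, between tissues and between sexes. Which libraries share an animal is not part of the labels, so a p-value here reflects only how these libraries scatter, and part of that scatter may be technical.

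The family has 3 branches. The water-selective channels Aqp1, Aqp4, Aqp5 and Aqp8 pass water along osmotic gradients; Aqp8 is also known to pass ammonia and hydrogen peroxide. The aquaglyceroporins Aqp3, Aqp7 and Aqp9 also pass glycerol, and in rodents Aqp7 lets glycerol leave fat cells while Aqp9 takes it into hepatocytes for making glucose. Aqp11 is an intracellular member of a more distant branch, found in the endoplasmic reticulum. In the stomach Aqp4 lies in the basolateral membrane of the acid-secreting parietal cells, and in salivary and other exocrine glands Aqp5 lies in the apical membrane of the secreting cells.

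The promoters of Aqp3, Aqp11, Aqp8 and Aqp9 are shown because these genes had the clearest tissue differences or followed the absorptive cells of the duodenum in the results described further on. Each is the 250 bases before the annotated start of the gene, 5′ to 3′ on the strand of the gene, from RefSeq on the GRCr8 build, which is a different build from the one used for the counts. Capitals mark matches to 6 motifs, each searched on both strands. They were TATAAA, the core promoter element; AGATAA, which the intestinal factor Gata4 and its relatives bind; TGATAA, the other common form of that site; CATAAA, a form bound by the intestinal factor Cdx2; CAAAGTC, one part of the site of the liver and gut factor Hnf4a; and GGGCGG, the element bound by Sp1. No 2 matches overlapped.
Aqp3 (chr5:61040684-61040933, minus strand): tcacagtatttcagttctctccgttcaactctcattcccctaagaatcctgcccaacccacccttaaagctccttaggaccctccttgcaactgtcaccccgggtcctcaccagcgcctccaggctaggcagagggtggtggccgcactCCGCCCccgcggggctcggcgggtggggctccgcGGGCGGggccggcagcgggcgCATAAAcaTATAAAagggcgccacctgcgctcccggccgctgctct
Aqp11 (chr1:161467919-161468168, minus strand): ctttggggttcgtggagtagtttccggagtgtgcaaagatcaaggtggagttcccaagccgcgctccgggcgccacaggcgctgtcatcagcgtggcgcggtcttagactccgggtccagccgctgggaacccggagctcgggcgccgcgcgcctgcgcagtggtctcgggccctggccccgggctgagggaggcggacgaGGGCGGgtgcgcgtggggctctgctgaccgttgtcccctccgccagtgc
Aqp8 (chr1:187424193-187424442, plus strand): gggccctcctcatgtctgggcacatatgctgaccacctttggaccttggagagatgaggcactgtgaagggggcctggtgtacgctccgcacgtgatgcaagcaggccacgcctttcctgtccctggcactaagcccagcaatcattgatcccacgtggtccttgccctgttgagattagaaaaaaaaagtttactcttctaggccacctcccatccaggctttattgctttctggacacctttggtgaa
Aqp9 (chr8:80718189-80718438, minus strand): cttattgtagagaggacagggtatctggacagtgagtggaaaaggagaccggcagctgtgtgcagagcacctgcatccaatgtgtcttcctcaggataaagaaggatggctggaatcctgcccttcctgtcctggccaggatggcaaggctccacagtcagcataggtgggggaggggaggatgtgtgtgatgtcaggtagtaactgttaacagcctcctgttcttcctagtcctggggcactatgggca

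Positions are counted back from the start, with -1 as the base before it, and give the first base of the match. The Aqp3 promoter held TATAAA at -38 and CATAAA at -46. It also held GGGCGG at -67 and, read on the opposite strand, at -101. Aqp11 held GGGCGG at -49, and none of the 6 motifs was found in the windows of Aqp8 and Aqp9. Among the members whose sequence is not shown, Aqp1 held TATAAA at -30 and GGGCGG at -87, Aqp5 held GGGCGG at -213 and, on the opposite strand, at -98, and 1 of the entries of Aqp4 held it on the opposite strand at -126. Of 33469 rat promoters, 12.9% held TATAAA, 11.4% CATAAA, 10.3% AGATAA, 7.97% TGATAA, 3.95% CAAAGTC and 30.5% GGGCGG. The guanine and cytosine content was 70.8% for Aqp11, 65.2% for Aqp3, 54.0% for Aqp9 and 53.6% for Aqp8, against a median of 51.2% over all promoters. Promoters of 7 of the 8 members were matched; Aqp7 had no entry. In that annotation Aqp7 and Aqp3 are neighbours, between Nfx1 and Nol6, and Aqp5 lies between Aqp2 and Aqp6.

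Library totals lay between 6153400 and 23717000 counts in liver, between 4947800 and 23940000 in stomach and between 5470000 and 25504000 in duodenum. Values below are CPM (counts scaled to 1000000 per library) with TMM library scaling, and 3 counts correspond to 0.111 to 0.579 CPM over all libraries. Tissue labels were checked against markers. Summed levels take in all listed genes with counts, also those below the filter. The summed level of 8 hepatocyte genes was 71500 to 174000 CPM in liver and 64.2 to 206 CPM in stomach. That of 7 parietal cell genes was 5000 to 13600 CPM in stomach and 10.3 to 405 CPM in duodenum. That of the enterocyte list, of which 9 genes passed the filter in duodenum and 4 in stomach, was 80.3 to 244 CPM in stomach and 2440 to 19000 CPM in duodenum. Pancreatic acinar genes ranged from 0.463 to 68800 CPM between duodenum libraries. One library went against its label. Male control duodenum replicate 1 had no counts of Pdx1, a transcription factor of the duodenum and pancreas, against 31.4 to 63.6 CPM in the other 46 duodenum libraries. The same library had 44.0 CPM of Hoxb7, a gene of more caudal body segments, where the others had at most 1.21 CPM, and only 0.259 CPM of Gata4 against 83.2 to 193 CPM. These markers were chosen after the values were seen, and the member values in duodenum are also given without that library. The gene lists and marker lists of the duodenum were not refitted without it. Libraries fell into 3 labelled batches, of which batch 3 had 2 libraries or fewer per group, too few for values of its own. Groups of batch 2 had 3 or 4 libraries and those of batch 1 had 1 to 4. Values within batch 1 can thus rest on very few libraries, most of all in liver males, with 2 per group.

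The first question is where each channel is transcribed. By their medians among controls, Aqp8 and Aqp9 were highest in liver, Aqp3, Aqp4 and Aqp5 in stomach, and Aqp7 and Aqp11 in duodenum, where Aqp4 and Aqp8 were the next most abundant after stomach and liver. The ranges of Aqp1 overlapped between all 3. The controls of all tissues were fitted together, in edgeR's quasi-likelihood model over 16033 genes, and differences are log2 fold changes with standard errors. CPM in this comparison are scaled over the controls of all tissues together, so they differ from the CPM of the single-tissue fits given after it. At an adjusted p under 0.05, 7 of 8 members were called between liver and duodenum, where 82% of all genes were called. All 8 were called between stomach and duodenum (76.9% of genes) and between liver and stomach (82.8%), so that the members' counts are near those of genes at large. Median differences over all genes were -0.14, -0.01 and -0.08 for liver minus duodenum, stomach minus duodenum and liver minus stomach.

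**Figure D1:**
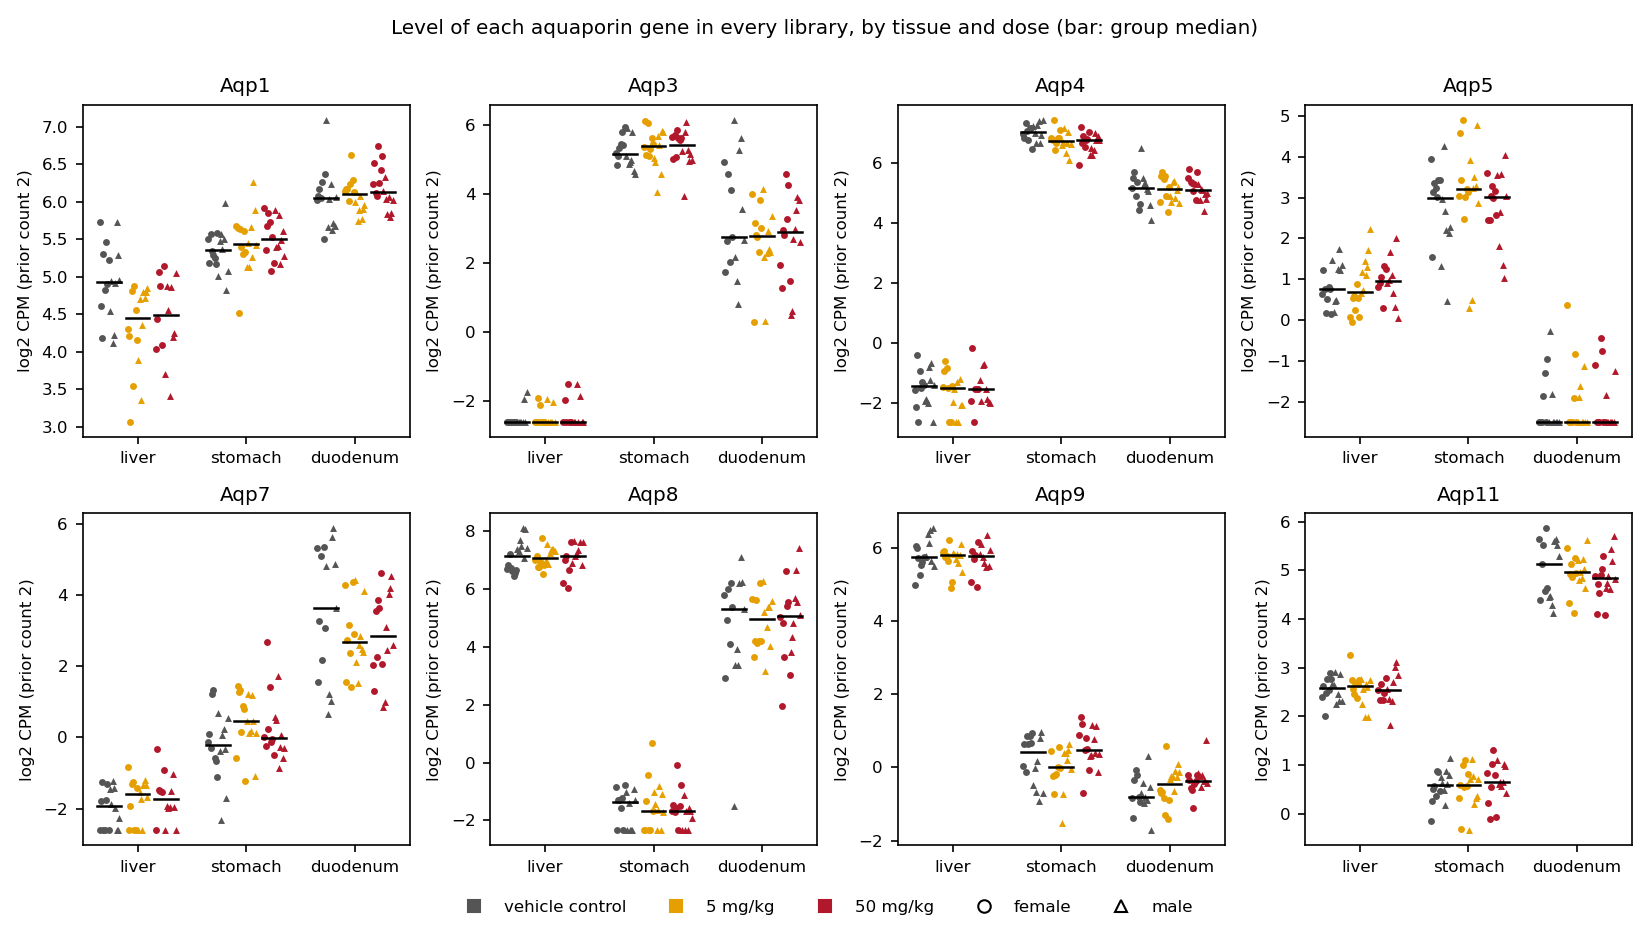
Level of each aquaporin in every library as log2 CPM (prior count 2), by tissue and dose (control, 5 and 50 mg/kg from left to right); circles are female and triangles male libraries, bars are medians. Aqp8 and Aqp9 are high in liver, Aqp4 and Aqp3 in stomach and Aqp7 and Aqp11 in duodenum, and the dose groups of each tissue overlap.

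Aqp8 had 144, 225 and 451 CPM (lowest, median and highest) in the 16 liver controls, 0 to 0.312 CPM in stomach controls and 0.132, 30.4 and 102 CPM in the 15 duodenum controls. No liver control overlapped a control of the other tissues. The difference was 2.82 ± 0.34 for liver minus duodenum (called by edgeR). The stomach controls held 25 counts of Aqp8 in all, so its fitted differences of 10.66 ± 0.55 for liver minus stomach and -7.84 ± 0.55 for stomach minus duodenum rest on few counts and are no bounds. Aqp4 had 0 to 0.96 CPM in liver, 69.8, 102 and 132 CPM in stomach, and 13.0, 26.8 and 67.9 CPM in duodenum. The 67.9 CPM of Aqp4 and the 0.132 CPM of Aqp8 came from male control duodenum replicate 1, and the values next to them were 39.1 CPM of Aqp4 and 5.58 CPM of Aqp8. All stomach controls lay above all duodenum controls, by 1.82 ± 0.15 on the log2 scale. Aqp4 was lower in liver than in the other tissues, at -6.24 ± 0.24 for liver minus duodenum and -8.06 ± 0.24 for liver minus stomach, where the liver controls held 42 counts in all.

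Aqp5 had 1.52, 2.46 and 5.11 CPM in liver controls, 0.954, 6.14 and 14.9 CPM in stomach controls and 0 to 0.499 CPM in duodenum controls, of which 10 of 15 were at 0. Liver and stomach ranges overlapped, and the difference of liver minus stomach was -1.12 ± 0.25. The duodenum held 15 counts in all, beside fitted differences of 5.11 ± 0.41 for liver and 6.23 ± 0.39 for stomach. Aqp1, the water channel of endothelium, red cells and bile duct cells, had 27.6, 49.0 and 85.7 CPM in liver, 22.4, 31.9 and 50.0 CPM in stomach, and 34.2, 50.4 and 104 CPM in duodenum. All 3 ranges overlapped. Liver minus duodenum was -0.01 ± 0.14, and 0.11 (edgeR adjusted p = 0.398) without male control duodenum replicate 1, while stomach minus duodenum was -0.64 ± 0.14 and liver minus stomach 0.62 ± 0.14. Within batches 1 and 2 the last difference was 0.79 and 0.41, and the second did not pass the test (edgeR adjusted p = 0.114).

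Of the aquaglyceroporins, Aqp9 had 48.8, 85.3 and 146 CPM in liver controls, 0.257, 0.884 and 1.41 CPM in stomach controls and 0.0948, 0.3 and 0.789 CPM in duodenum controls. The liver stood apart from both, at 6.84 ± 0.15 above stomach and 7.97 ± 0.17 above duodenum, and the stomach was 1.14 ± 0.22 above duodenum. Aqp7 had the reverse order, with 0 to 0.425 CPM in liver, 0, 0.521 and 1.81 CPM in stomach, and 1.07, 9.39 and 43.6 CPM in duodenum. It was lower in liver and in stomach than in duodenum, at -6.43 ± 0.60 and -4.66 ± 0.46. Liver minus stomach for Aqp7 was -1.78 ± 0.79 (edgeR adjusted p = 0.0355), a call made on 20 liver counts. It was lost within each batch (adjusted p = 0.256 and 0.152) and without any one of 6 libraries (adjusted p between 0.0507 and 0.0643), which were liver female control 5, liver male control 5 and 7, stomach female control 4 and 5, and stomach male control 1.

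Aqp3, which passes water and glycerol through the basolateral membrane of epithelia and skin, was at 0 in 14 of 16 liver controls, with 4 counts in all. Stomach controls had 18.1, 27.8 and 48.7 CPM and duodenum controls 1.17, 5.08 and 54.1 CPM. The highest duodenum value came from male control replicate 1, and without it stomach minus duodenum for Aqp3 was 1.47. The stomach was higher than the duodenum by 1.28 ± 0.35, and the difference was 1.49 within batch 1 (adjusted p = 0.0435) and 0.84 within batch 2 (adjusted p = 0.158). Aqp11 had 6.17, 9.5 and 11.9 CPM in liver, 0.558, 1.03 and 1.54 CPM in stomach, and 12.9, 26.2 and 44.0 CPM in duodenum. The ranges of the 3 tissues did not overlap, and the differences were -1.49 ± 0.15 for liver minus duodenum, -4.65 ± 0.18 for stomach minus duodenum and 3.16 ± 0.18 for liver minus stomach. Refits of batch 1 and of batch 2 alone called each tissue difference that was called over all libraries, with the same sign, except those of Aqp1, Aqp3 and Aqp7 whose batch values are given above. Liver minus duodenum for Aqp1 was 0.07 in batch 1 and -0.27 in batch 2, and neither was called. Without male control duodenum replicate 1 every member's call stayed as it was, where 82.2% of genes were called between liver and duodenum, 77.7% between stomach and duodenum and 83.2% between liver and stomach. Liver minus duodenum was then -6.10 for Aqp4, 5.03 for Aqp5, -6.43 for Aqp7, 2.72 for Aqp8, 7.95 for Aqp9 and -1.53 for Aqp11. Stomach minus duodenum was -0.50 for Aqp1, 1.96 for Aqp4, 6.16 for Aqp5, -4.66 for Aqp7, -7.94 for Aqp8, 1.12 for Aqp9 and -4.69 for Aqp11.

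The other family genes were scarce. Aqp2 and Aqp10 had no counts in any library, Aqp6 had 0.102 CPM in 1 duodenum library and 0 elsewhere, and Mip reached 0.189 CPM. Aqp12a, an intracellular channel of pancreatic acinar cells in mouse, ranged from 0 to 52.9 CPM in duodenum, with a median of 0.845 CPM, and did not pass 5.25 CPM in stomach and 0.184 CPM in liver. Its female minus male difference among duodenum controls was 2.83 ± 1.04 (edgeR adjusted p = 0.675).

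The second question is how dosed and vehicle rats differed. In duodenum the glycerol channels Aqp3 and Aqp7 had the largest fitted changes of the 6 measured members at both doses, each about 1 log2 unit below control. Neither was called, and the medians of Aqp3 did not fall with dose. In the fit over all 47 duodenum libraries, 16.3% of 15189 genes were called at the high dose (8.76% higher, 7.58% lower) and 0 of the 6 members. Unadjusted p was under 0.05 for 2 members and for 4868 of the 15189 genes, and DESeq2 called 3015 genes and no member. At the low dose 0 genes were called, 2132 had an unadjusted p under 0.05, and DESeq2 called 18 genes and no member. The high-dose count of 2481 genes depended on the fit: it was 0 once each library's share of ribosomal protein transcripts was a term, and with 1 library left out it ranged from 1146 (without female control 1) to 3700 of 15175 (without male high-dose 6). Both dose comparisons use the same controls.

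**Figure D2:**
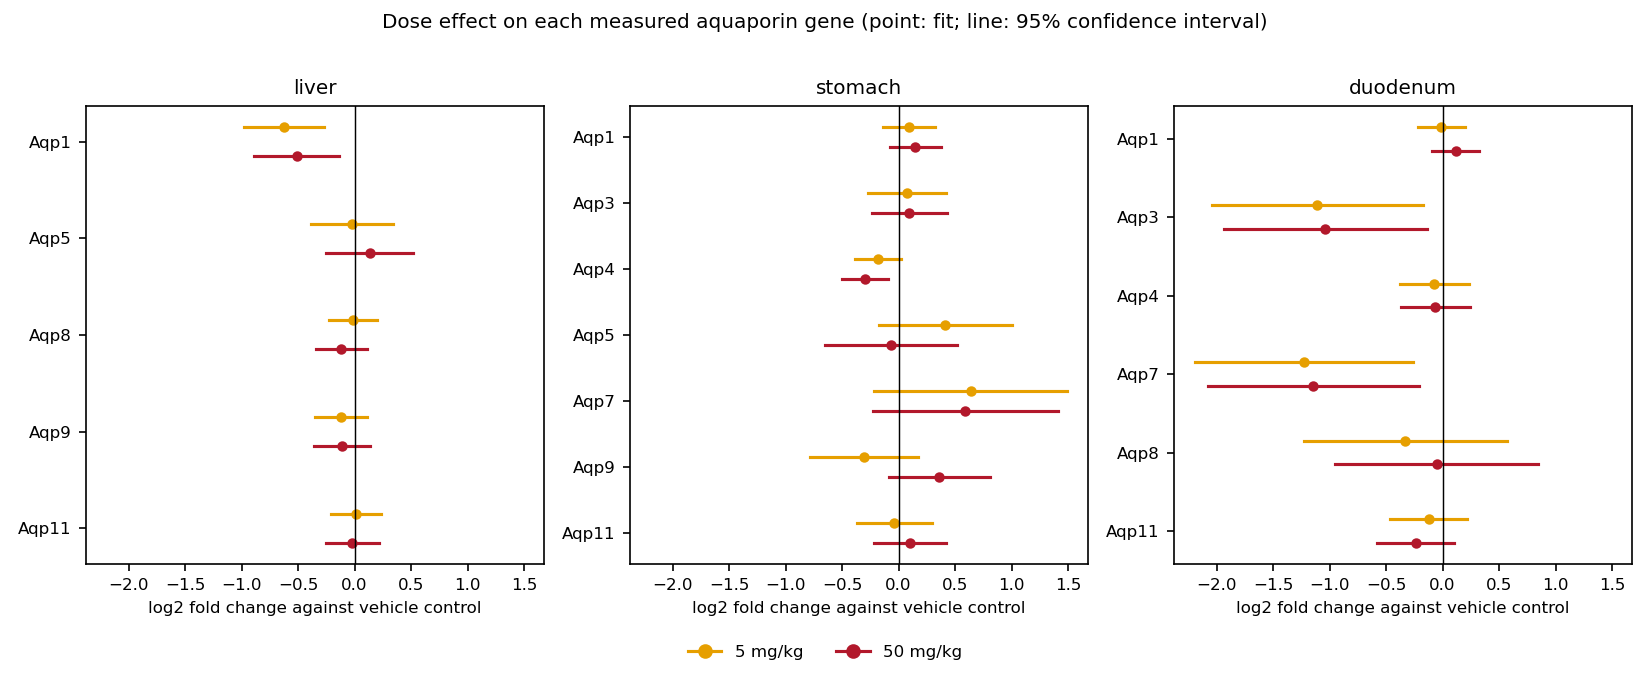
Log2 fold change of each aquaporin that passed the filter, 5 mg/kg and 50 mg/kg against control, in liver, stomach and duodenum. Lines are approximate 95% intervals, built from each change and its F statistic in the edgeR fit. Aqp1 in liver, Aqp4 in stomach (at 50 mg/kg) and Aqp3 and Aqp7 in duodenum have intervals on 1 side of 0, none of them called after adjustment over all genes.

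Duodenal Aqp3 had 1.56, 6.53 and 70.8 CPM in control, 1.04, 6.67 and 17.5 CPM at 5 mg/kg and 1.23, 7.19 and 23.6 CPM at 50 mg/kg. The medians were close, with those of both doses slightly above that of control, and the groups overlapped almost wholly. The log2 change was -1.11 ± 0.46 at the low dose (edgeR adjusted p = 0.286) and -1.04 ± 0.45 at the high dose (0.0972). Without male control replicate 1, which had the 70.8 CPM, these were -0.90 and -0.80 (adjusted p = 0.48 and 0.219). Without male high-dose replicate 6 the high-dose value of Aqp3 was -1.20 and was called (adjusted p = 0.0484), in a fit that called 24.4% of genes. Within batches 1 and 2 the high-dose change of Aqp3 was -1.55 and -1.0. At the low dose it was -0.44 and -2.10, the second with an edgeR adjusted p of 0.0454 in a fit that called 245 genes. Male control replicate 1 is among the controls of batch 2, and batch 2 was not refitted without it.

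Duodenal Aqp7 had 1.4, 12.3 and 58.8 CPM in control, 2.47, 6.24 and 21.5 CPM at 5 mg/kg and 1.64, 7.17 and 24.5 CPM at 50 mg/kg. The highest control libraries lay above every dosed one, and the lower parts of the groups overlapped. The log2 change at the low dose was -1.23 ± 0.48 (edgeR adjusted p = 0.273), and -1.20 (0.411) without male control replicate 1. At the high dose it was -1.15 ± 0.46 (0.0788), with -1.12 (0.104) without male control replicate 1 and -1.29 (0.0426, called) without male high-dose replicate 6. Within batches 1 and 2 it was -1.64 and -1.06 at the high dose and -0.66 and -2.11 at the low dose. Enterocyte markers were set beside both channels. None of 9 measured was called, and their median change was -0.46 at the low and -0.53 at the high dose, against -0.01 and -0.02 over all genes. The summed level of the whole enterocyte list was 3210, 7420 and 19000 CPM in control, 3050, 5190 and 13900 CPM at 5 mg/kg, and 2440, 5760 and 10400 CPM at 50 mg/kg. None of 10 measured acinar genes was called at either dose. Of 6 adipocyte markers 1 fell at the high dose, Cidec at -0.71 (edgeR adjusted p = 0.0397), and the share of ribosomal protein transcripts was 5.15% ± 1.46 at the high dose (SD, n = 16) and 3.57% ± 0.63 in control (n = 15). Refits with the enterocyte marker mean (18.8% of genes called) or the ribosomal share (0 genes called) as a covariate called neither Aqp3 nor Aqp7. Otherwise the part of these markers and transcripts in the values of Aqp3 and Aqp7 was not tested. In such bulk tissue, fewer cells of a type and less RNA per cell cannot be told apart.

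The other duodenal members lay nearer to 0. Aqp8 had 0.172, 40.0 and 138 CPM in control, 8.79, 31.4 and 78.4 CPM at 5 mg/kg and 3.75, 33.5 and 171 CPM at 50 mg/kg, with changes of -0.33 ± 0.45 and -0.05 ± 0.44 and wide overlap. Aqp11 had 17.2, 34.6 and 58.0 CPM in control, 17.3, 30.9 and 49.0 CPM at the low dose and 16.8, 28.7 and 51.7 CPM at the high dose, with changes of -0.12 ± 0.17 and -0.24 ± 0.17. Aqp1 had 45.1, 65.9 and 136 CPM in control, 53.5, 68.5 and 98 CPM at the low dose and 55.1, 69.9 and 107 CPM at the high dose. Aqp1 groups overlapped, and the changes were -0.01 ± 0.10 and 0.12 ± 0.10. Leaving out male control replicate 1, whose 136 CPM was the highest, brought the high-dose change of Aqp1 to 0.25, which was called (edgeR adjusted p = 0.0397, where 12.1% of 15164 genes were called). Aqp4 had medians of 36.0, 35.0 and 34.0 CPM at control, low and high dose, with changes of -0.07 ± 0.15 at both doses. Without that library the Aqp4 changes were 0.09 at both doses, those of Aqp8 were -0.41 and -0.15, those of Aqp11 -0.15 and -0.26, and the low-dose change of Aqp1 was 0.12, none of these called. Aqp5 was at 0 in 31 of 47 duodenum libraries and Aqp9 did not exceed 1.49 CPM, and neither was tested there.

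In stomach, the water channel of parietal cells, Aqp4, was the member with the smallest p at the high dose, and it was not called. It had 88.0, 129 and 171 CPM in control, 68.3, 105 and 173 CPM at 5 mg/kg and 60.7, 108 and 145 CPM at 50 mg/kg. The groups overlapped, and medians of both doses were below the control median. The change was -0.18 ± 0.10 at the low dose (edgeR adjusted p = 0.806) and -0.30 ± 0.10 at the high dose (0.0679). At the high dose 4.49% of 15140 genes were called (2.65% higher, 1.84% lower) and 0 of 7 members. Unadjusted p was under 0.05 for 1 member and for 3610 of the 15140 genes. DESeq2 called 1 member, Aqp4 (adjusted p = 0.0462), among 1025 genes. At the low dose 0 genes were called, 909 had an unadjusted p under 0.05, and DESeq2 called 28, no member among them. The high-dose value of Aqp4 was called when female control 2, male control 6, male high-dose 5 or male high-dose 8 was left out (adjusted p = 0.0483, 0.0357, 0.0453 and 0.0428), fits that called 1465, 1231, 958 and 933 genes. The edgeR count of 680 called genes was 4 without the batch term, 1 once the share of ribosomal protein transcripts was added, and 4 without male high-dose 4, the fewest with 1 library left out. Within batches 1 and 2 the high-dose change of Aqp4 was -0.34 and -0.28.

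By sex, Aqp4 in stomach had 76.1, 98.9 and 128 CPM in high-dose males and 101, 137 and 171 CPM in control males, against 60.7, 110 and 145 CPM in high-dose females and 88.0, 128 and 160 CPM in control females. The male groups overlapped between 101 and 128 CPM. The change in males was -0.41 ± 0.14 (edgeR adjusted p = 0.0666), in a comparison where 7.06% of genes were called. DESeq2 called it (0.0464, among 1384 genes), as did the fits of edgeR without male control 6, male high-dose 5 or male high-dose 8 (0.0427, 0.0383 and 0.0325, among 1089, 1590 and 1360 genes). Within batches 1 and 2 the change in males was -0.52 and -0.46. The difference of the high-dose effect between the sexes of stomach was called for no gene (1187 had an unadjusted p under 0.05, and DESeq2 called 0). Of 7 parietal cell markers 2 fell beside Aqp4 at the high dose, Esrrg, a nuclear receptor of acid-secreting cells, at -0.34 (adjusted p = 0.0352) and the potassium channel gene Kcnj15 at -0.34 (0.0376). Their median was -0.28, against -0.01 over all genes, and the summed level of the 7 was 6500, 9360 and 13600 CPM in control, 6620, 8390 and 11800 CPM at 5 mg/kg, and 5000, 7930 and 10000 CPM at 50 mg/kg. Striated muscle markers were also lower, with 4 of 7 called and a median of -1.84, and ribosomal protein transcripts took 4.20% ± 1.66 of counts at the high dose and 2.79% ± 0.89 in control (SD, n = 16 each). Refits with the parietal marker mean (8.52% of genes called) or the ribosomal share (1 gene called) as a covariate did not call Aqp4. Otherwise the part of these markers and transcripts in the Aqp4 value was not tested.

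The remaining stomach members were not called at either dose. Aqp5 had 1.2, 7.76 and 19.0 CPM in control, 1.04, 9.05 and 29.6 CPM at the low dose and 1.84, 7.86 and 16.2 CPM at the high dose, with changes of 0.41 ± 0.29 and -0.07 ± 0.29. Within batches 1 and 2 the Aqp5 change was 0.41 and 0.55 at the low dose and 0.72 and -0.34 at the high dose. In males at the high dose the Aqp5 change was 0.25 ± 0.42 over all libraries, 1.98 in batch 1 (edgeR adjusted p = 0.0312, called) and -0.51 in batch 2. The batch 1 value rests on 2 high-dose and 3 control males. Aqp3 had 23.5, 35.1 and 61.4 CPM in control, 16.5, 41.7 and 68.4 CPM at the low dose and 15, 42.5 and 67.1 CPM at the high dose, with changes of 0.07 ± 0.17 and 0.10 ± 0.17. Groups overlapped for both. Aqp1 had medians of 40.7, 43.0 and 45.2 CPM with changes of 0.09 ± 0.11 and 0.15 ± 0.11. Aqp7 was low, with 0, 0.663 and 2.3 CPM in control, 0.225, 1.18 and 2.54 CPM at the low dose and 0.35, 0.791 and 6.18 CPM at the high dose, and its changes were 0.64 ± 0.42 and 0.59 ± 0.41. Aqp9, which neutrophils also carry, had medians of 1.14, 0.802 and 1.2 CPM, and changes of -0.31 ± 0.24 and 0.36 ± 0.22. Between high and low dose Aqp9 differed by 0.67 ± 0.22 (edgeR adjusted p = 0.124, where 0.707% of genes were called), with 0.02 in batch 1 and 0.91 in batch 2. The changes of Aqp11 were -0.04 ± 0.16 at the low and 0.10 ± 0.16 at the high dose. Aqp8 was at 0 in 16 of 48 stomach libraries, did not pass the filter and was not tested there.

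In liver no gene was called at either dose, and none of the 5 members. An unadjusted p under 0.05 was found for 446 of 13130 genes at the high dose and 272 at the low dose, 1 member each time, and DESeq2 called 0 genes at both. That member was Aqp1. It had 17.1, 30.2 and 52.9 CPM in control, 8.22, 21.8 and 29.2 CPM at 5 mg/kg and 10.4, 22.4 and 35.1 CPM at 50 mg/kg. All low-dose libraries lay below the control median, and the groups overlapped. The change was -0.62 ± 0.17 at the low dose and -0.51 ± 0.19 at the high dose, and the edgeR adjusted p was 1 at both. Batch 1 alone gave -1.03 at the low and -0.91 at the high dose, and batch 2 gave -0.25 and -0.15. The high-dose females of batch 1 were 1 library. Calls of markers of cells known to carry Aqp1 could not add to this, since no gene was called. The 8 endothelial genes, 0 of them called, summed to 159, 297 and 370 CPM in control. Their sums were 209, 261 and 340 CPM at the low dose and 164, 265 and 366 CPM at the high dose. Of 3 measured erythroid genes 0 were called. The whole erythroid list, with genes below the filter, summed to 128, 448 and 689 CPM, 189, 305 and 858 CPM, and 154, 438 and 779 CPM at control, low and high dose. The median change of 4 measured cholangiocyte genes was 0.16 at the low and 0.09 at the high dose. The part of these cells in the Aqp1 value was not tested.

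The hepatocyte channels were close to 0 change. Aqp8 had 87.7, 140 and 275 CPM in control, 91.0, 135 and 219 CPM at the low dose and 66.2, 141 and 202 CPM at the high dose, with changes of -0.01 ± 0.10 and -0.12 ± 0.11. Aqp9 had 31.4, 53.3 and 92.3 CPM in control, 29.5, 55.1 and 73.7 CPM at the low dose and 30.2, 54.6 and 81.0 CPM at the high dose, with changes of -0.12 ± 0.11 and -0.11 ± 0.12. For both channels the medians of the 3 groups were close and all groups overlapped. The changes of Aqp11 were 0.01 ± 0.11 and -0.02 ± 0.12, and those of Aqp5 were -0.02 ± 0.18 and 0.13 ± 0.19. Aqp3 was at 0 in 36 of 46 liver libraries, Aqp7 in 14 and Aqp4 in 7, and these were not tested.

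Sex is the third comparison, and here liver Aqp8 was lower in females. Among controls Aqp8 had 87.7, 102 and 147 CPM in females, against 134, 175 and 275 CPM in males. The groups overlapped only between 134 and 147 CPM. The log2 difference of female minus male was -0.85 ± 0.15 (edgeR adjusted p = 3.91e-05), and it was called in batch 1 (-0.67, 0.00719) and in batch 2 (-1.07, 0.00561). Of all liver genes 22.8% were called in this comparison, 10.5% higher and 12.3% lower in females, and of the 5 members Aqp8 alone. Aqp9 had 31.4, 50.7 and 65.9 CPM in female and 45.2, 62.3 and 92.3 CPM in male controls, with wide overlap and a difference of -0.44 ± 0.17 (adjusted p = 0.0532). It was called by DESeq2 (0.0419, among 3204 genes) and in 11 edgeR fits that each left out 1 library (adjusted p between 0.0191 and 0.0496), and was -0.12 in batch 1 and -0.73 in batch 2. Aqp5 differed by -0.36 ± 0.27, Aqp1 by 0.35 ± 0.26 and Aqp11 by 0.06 ± 0.16.

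**Figure D3:**
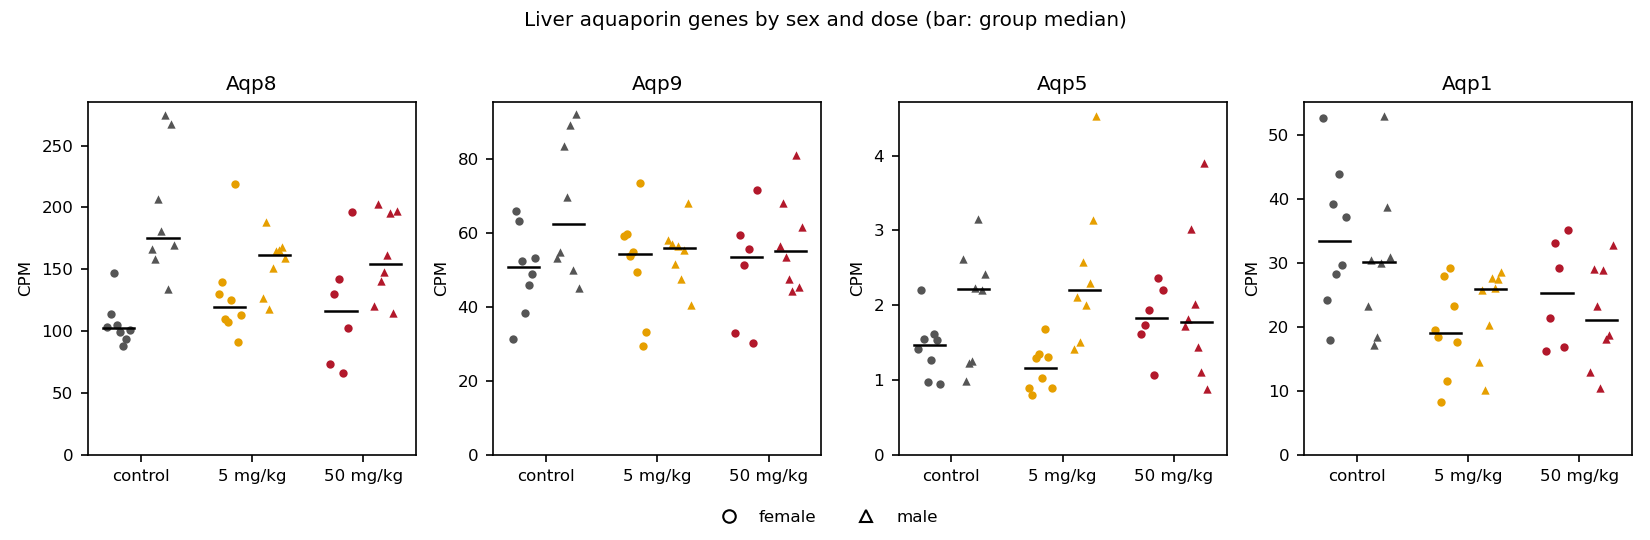
CPM of Aqp8, Aqp9, Aqp5 and Aqp1 in each liver library, by sex and by dose (control, 5 and 50 mg/kg), with bars at the medians. Female controls of Aqp8 sit between 87.7 and 147 CPM and male controls between 134 and 275 CPM.

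In dosed rats Aqp8 had 91.0, 119 and 219 CPM in females and 118, 162 and 188 CPM in males at the low dose, and 66.2, 116 and 196 CPM in females and 114, 154 and 202 CPM in males at the high dose. Female medians were the lower ones at each dose, with wide overlap. Female minus male was -0.28 ± 0.15 at the low dose (edgeR adjusted p = 0.172) and -0.53 ± 0.16 at the high dose (0.0186). The low-dose value was called without female low-dose 6 (-0.42, 0.0426). The high-dose call was lost without female high-dose 1, 4 or 5 (0.0694, 0.0935 and 0.0549), in the fits without the batch term (11.1% of genes called) and without batch 3 (11.9%), and within each batch (-0.83, 0.0592 and -0.37, 0.447). The test of the difference itself, the dose effect in females minus that in males at the low dose, gave 0.56 ± 0.21 for Aqp8 (adjusted p = 0.071, with 7.84% of genes called), so a difference between sexes in the low-dose effect did not pass. It was called without female low-dose 7, by DESeq2 (1946 genes called), in the fit of only the groups compared (1939 genes) and without batch 3 (796 genes).

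Aqp5, which was low in liver, had 0.802, 1.16 and 1.68 CPM in low-dose females and 1.42, 2.21 and 4.53 CPM in low-dose males. The groups overlapped between 1.42 and 1.68 CPM. The difference was -1.0 ± 0.27 (edgeR adjusted p = 0.00552), where 24.3% of genes were called. Within batches the Aqp5 difference was -0.87 (adjusted p = 0.346) and -0.95 (0.0542). At the high dose Aqp5 had 1.07, 1.83 and 2.36 CPM in females and 0.88, 1.77 and 3.9 CPM in males, a difference of -0.07 ± 0.28, where 15.6% of genes were called. Beside these, the 8 hepatocyte markers held 1 gene higher in control females (Cyp2e1 at 0.95) and 3 lower (Ttr at -1.28, Apoa1 at -0.77 and Serpina1 at -0.47), and their sums were 104000, 119000 and 166000 CPM in female and 84400, 117000 and 127000 CPM in male controls. Of 11 pancreatic acinar genes only 2 passed the filter in liver, and both were called higher in control females. The list summed to 38.5, 171 and 392 CPM in female and 0.11, 0.833 and 1.52 CPM in male control livers, without overlap. Of 8 endothelial genes 2 were higher in females, Kdr at 0.56 and Tek at 0.46. Their part in the aquaporin values was not tested. In stomach and duodenum, edgeR called 26 (0.172%) and 12 (0.079%) genes between control sexes and no aquaporin. There 1106 stomach and 805 duodenum genes had an unadjusted p under 0.05, and DESeq2 called 59 and 18 genes, again no member. Stomach Aqp5 differed by 0.82 ± 0.42 between control sexes over all libraries (adjusted p = 0.709), and by 1.62 in batch 1 (edgeR adjusted p = 0.0276, called) and 0.66 in batch 2.

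Across libraries the levels of several members followed a cell type's markers. For each of 20 pairs of a member and a list, the member's log2 CPM was set against the mean log2 CPM of the list, and p-values came from 100000 permutations and were adjusted over the 20, where 1e-05 before adjustment is the smallest they can give. Here and below, libraries were permuted without regard to sex, dose or batch, so shifts shared by such groups can add to a correlation. In the 47 duodenum libraries, Aqp11 against the enterocyte genes had a Pearson r of 0.893 and a Spearman rho of 0.9. Without the 2 libraries farthest from the median it was 0.898, and within batches 1 and 2 it was 0.946 and 0.875. Aqp8 had an r of 0.83 and a rho of 0.883, 0.837 without the 2 farthest, and 0.903 and 0.805 within batches. Aqp7 had an r of 0.818 and a rho of 0.852, 0.937 without the 2 farthest, and 0.944 and 0.706 within batches. Each of these 3 had a permutation p of 1e-05 and an adjusted p of 3.33e-05 for r. Leaving out male control replicate 1 gave 0.902 for Aqp11, 0.85 for Aqp8 and 0.943 for Aqp7. Aqp7 also followed the adipocyte genes (r = 0.617, rho = 0.605, 0.573 without the 2 farthest, 0.527 and 0.663 within batches). Aqp1 followed the endothelial genes less closely, at r = 0.393 (rho = 0.356, adjusted permutation p = 0.0105, 0.338 without the 2 farthest, 0.115 and 0.571 within batches), and at 0.285 without male control replicate 1. Aqp3 did not pass against goblet cell genes (r = 0.165, adjusted p = 0.354), nor did Aqp4 against smooth muscle genes (r = 0.275, adjusted p = 0.0887) or Aqp8 against acinar genes (r = 0.158, adjusted p = 0.371).

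**Figure D4:**
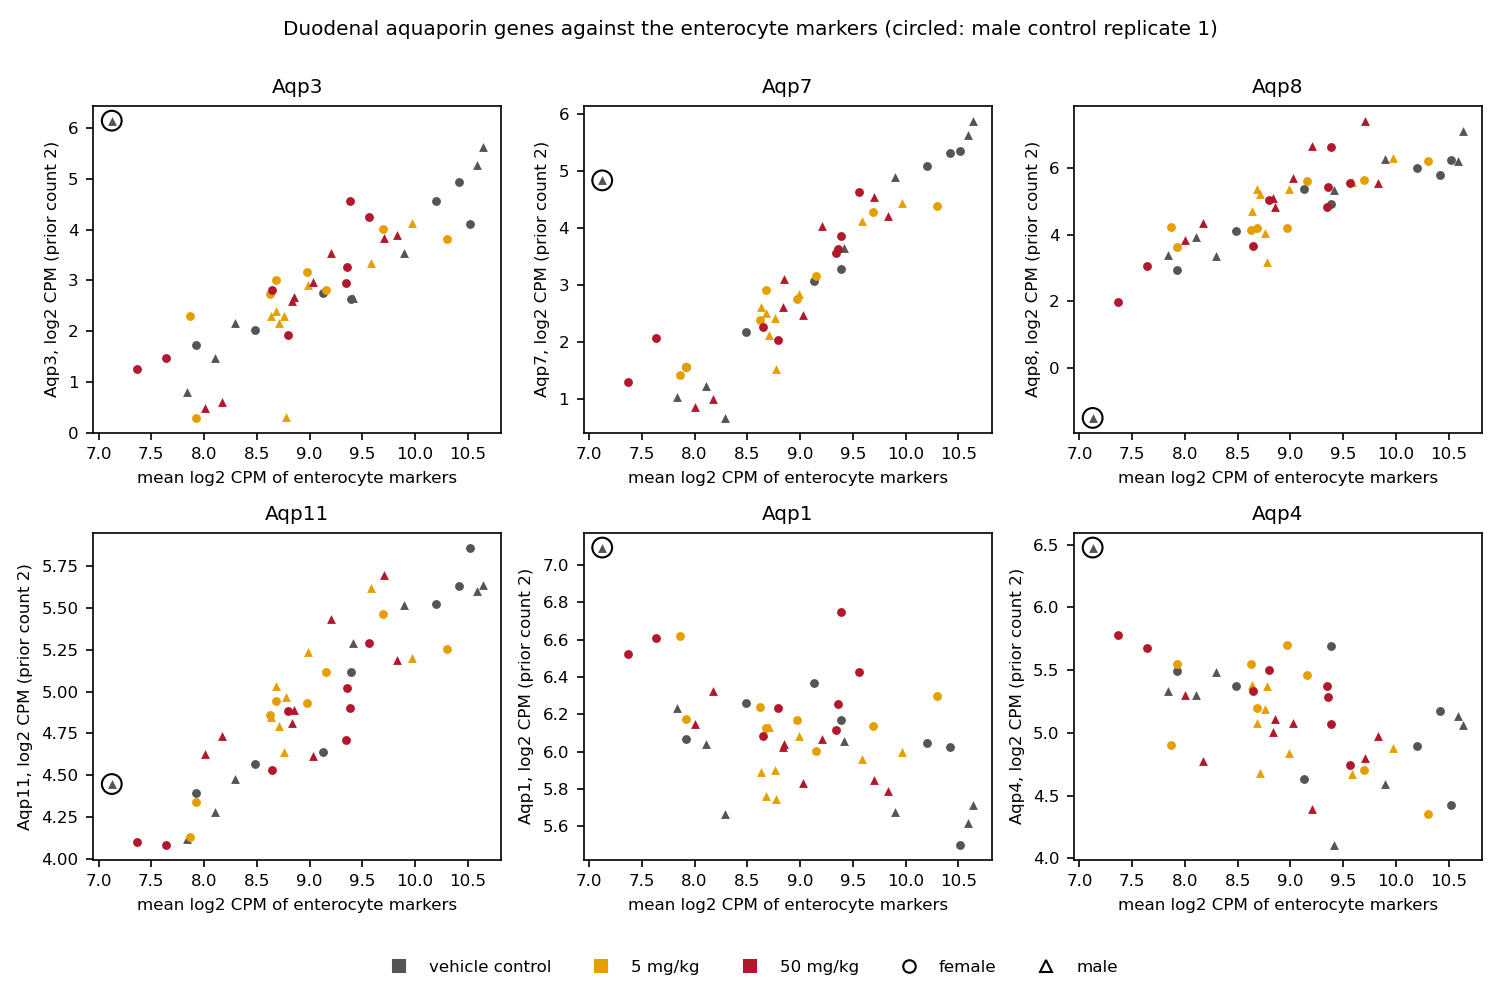
Log2 CPM of 6 aquaporins in each duodenum library against the mean log2 CPM of 9 enterocyte markers, with male control replicate 1 circled. Aqp11, Aqp8, Aqp7 and Aqp3 rise with the markers (r = 0.893, 0.83, 0.818 and 0.661), and Aqp4 and Aqp1 fall with them (-0.592 and -0.531).

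Other relations were added after the data had been seen, in a second family of 49 tests over the 3 tissues. Aqp3 followed the enterocyte genes at r = 0.661 (rho = 0.77, adjusted permutation p = 6.12e-05), and at 0.878 without male control replicate 1. It was 0.865 without the 2 farthest and 0.89 and 0.436 within batches. Aqp4 ran the other way at r = -0.592 (rho = -0.598, adjusted p = 6.12e-05, -0.548 without the 2 farthest, -0.461 and -0.633 within batches), and so did Aqp1 at -0.531 (rho = -0.449, adjusted p = 0.000445, -0.42 without the 2 farthest, -0.636 and -0.563 within batches). Without male control replicate 1 these were -0.528 for Aqp4 and -0.453 for Aqp1. The neighbouring genes Aqp3 and Aqp7 correlated at r = 0.907 in duodenum (rho = 0.926, adjusted p = 6.12e-05, 0.908 without the 2 farthest, 0.965 and 0.844 within batches). In stomach the same pair had r = 0.0989 (adjusted p = 0.722). Aqp3 and Aqp8 had r = 0.364 over all duodenum libraries and 0.802 without male control replicate 1, which had the highest Aqp3 and the lowest Aqp8 of the tissue. Members of one library share its depth and cell makeup, so these correlations describe libraries, not regulation.

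In the 48 stomach libraries, Aqp5 followed 5 genes taken as antral gland markers, Muc6, Tff2, Gast, Pdx1 and Nkx6-2, at r = 0.909 (rho = 0.797, adjusted p = 3.33e-05, 0.879 without the 2 farthest, 0.786 and 0.924 within batches). Whether these 5 genes are confined to antral glands was not tested. Aqp7 followed 7 adipocyte genes at r = 0.91 (rho = 0.877, adjusted p = 3.33e-05, 0.88 without the 2 farthest, 0.852 and 0.913 within batches). Aqp4 followed 7 parietal cell genes at r = 0.609 (rho = 0.599, adjusted p = 5.71e-05, 0.639 without the 2 farthest, 0.637 and 0.629 within batches). Aqp3 followed 6 measured genes of squamous epithelium, the lining of the rat forestomach, at r = 0.46 (rho = 0.359, adjusted p = 0.00188, 0.386 without the 2 farthest, 0.424 and 0.629 within batches). Aqp11 ran against chief cell genes at -0.399 (rho = -0.345, adjusted p = 0.00956, -0.412 without the 2 farthest), with -0.141 within batch 1 and -0.496 within batch 2. Aqp4 did not pass against striated muscle genes (-0.047, adjusted p = 0.83), nor Aqp1 against endothelial genes (0.0319, adjusted p = 0.83).

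**Figure D5:**
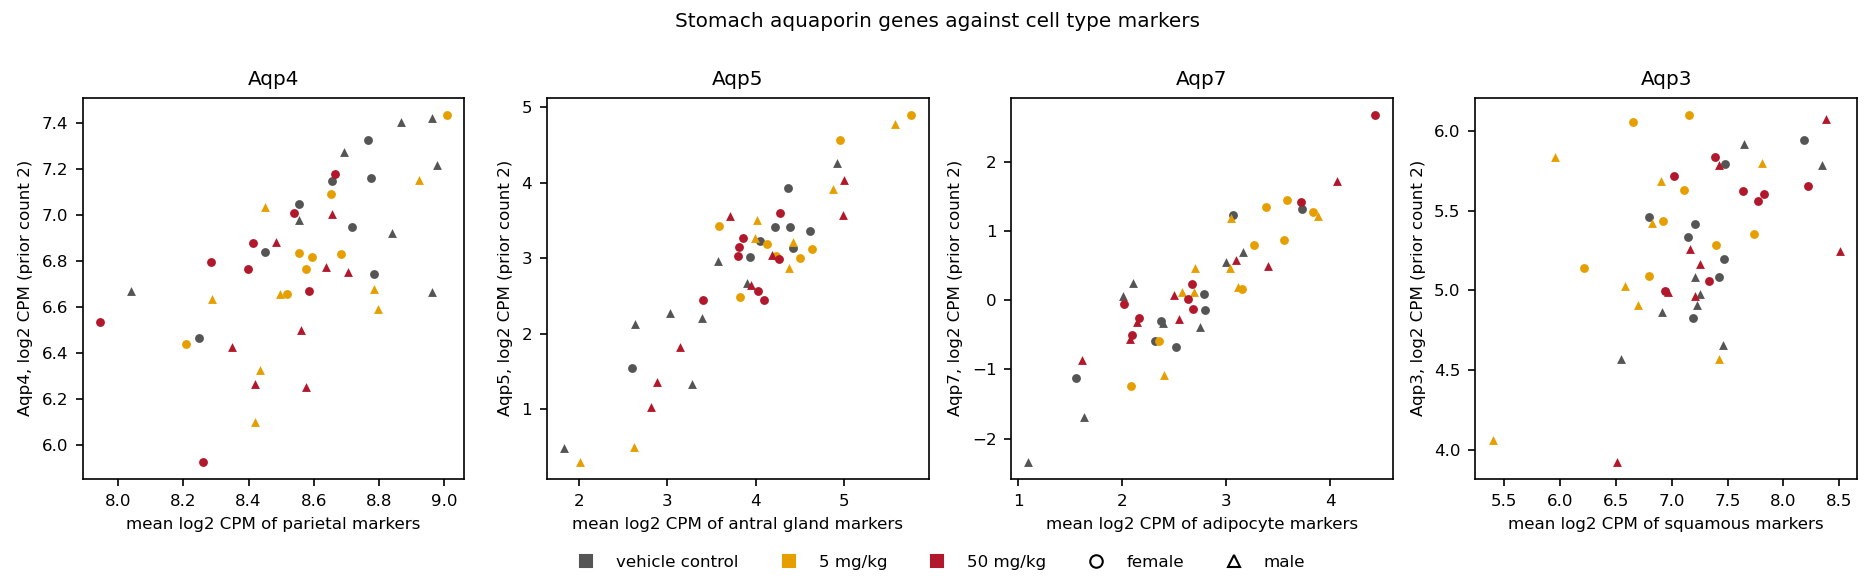
Log2 CPM of Aqp4, Aqp5, Aqp7 and Aqp3 in each stomach library against the mean log2 CPM of parietal, antral gland, adipocyte and squamous markers. Aqp5 and Aqp7 lie close to a line (r = 0.909 and 0.91), Aqp4 (0.609) and Aqp3 (0.46) scatter more widely.

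In the 46 liver libraries, Aqp8 and Aqp9 rose with the hepatocyte genes over all libraries, at r = 0.526 (rho = 0.404, adjusted p = 0.000425, 0.422 without the 2 farthest) and r = 0.522 (rho = 0.421, adjusted p = 0.000444, 0.401 without the 2 farthest). Batches 1 and 2 had opposite signs, with -0.279 for Aqp8 and -0.482 for Aqp9 in the 15 libraries of batch 1, and 0.645 and 0.67 in the 24 libraries of batch 2. Among the 49 added tests, Aqp8 and Aqp9 correlated with each other in liver at r = 0.687 (rho = 0.644, adjusted p = 6.12e-05, 0.715 without the 2 farthest), and at 0.524 and 0.86 within batches. Liver Aqp1 did not pass against endothelial (r = 0.15, adjusted p = 0.377) or cholangiocyte genes (r = 0.0388, adjusted p = 0.83).

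The genes whose log2 CPM over the libraries of a tissue was most like that of a member are given with Pearson's r, as a description only. In duodenum the closest of 14336 genes to Aqp7 included Clec2h (0.96) and Sectm1b (0.958), and the closest to Aqp3 included Mep1b (0.92), a brush border peptidase, and Amn (0.908), part of the vitamin B12 receptor. Aqp8 was most like Hsd17b2 (0.92), Creb3l3 (0.919) and Prap1 (0.908), and Aqp11 most like Cgref1 (0.918), Pgm2 (0.915) and Gsdmd (0.909). Aqp4 was most like Ehf (0.838), Qser1 (0.81) and Amer1 (0.797), and Aqp1 most like Aldh1b1 (0.746). In stomach, of 14417 genes, Aqp5 was closest to Dmbt1 (0.905), Nkx6-3 (0.857), an antral transcription factor, and Atp2a3 (0.854). Stomach Aqp7 was closest to Plin1 (0.869), which coats fat droplets, Adipoq (0.854), the fat cell hormone adiponectin, and Pck1 (0.839). Aqp4 was closest to Trim2 (0.81), Pik3c2g (0.803) and Slc16a7 (0.799), and Aqp3 to Psapl1 (0.775), Mxd1 (0.771) and Ralgps2 (0.758). In liver, of 12580 genes, Aqp8 was closest to Cars2 (0.846), Iqcg (0.842) and Lcmt1 (0.841), the last being the gene next to Aqp8 on chromosome 1, and Aqp9 to Anks4b (0.783), Iscu (0.774) and Ces1c (0.771). Liver Aqp1 reached 0.642 with Thap11, Aqp5 0.654 with Prr3 and Aqp11 0.548 with Zfp868.

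Transcript shares were taken from the deposited transcript-level counts in libraries with at least 20 counts of the gene. Aqp8 came almost wholly from 1 transcript, ENSRNOT00000019939, at 99.5% ± 0.805 in liver and 99.2% ± 1.54 in duodenum (SD, n = 46 each). Aqp11 had a main transcript, ENSRNOT00000018091, at 89.8% ± 7.68 in liver and 86.2% ± 3.92 in duodenum (n = 46 and 47). Aqp4 was split over several, of which the first, ENSRNOT00000077606, took 44.7% ± 11.7 in stomach and 33.1% ± 13.8 in duodenum, and the second, ENSRNOT00000048109, took 35.6% ± 7.91 and 40.2% ± 11.5 (n = 48 and 47). By dose, the first Aqp4 transcript in stomach took 45.3% ± 11.8 in control, 43.8% ± 10.1 at 5 mg/kg and 44.9% ± 13.7 at 50 mg/kg (n = 16 each), differences smaller than the spread between libraries. Such transcript counts are estimates, since reads shared by transcripts are divided between them.

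Genes that work beside the channels were followed in 4 lists, whose counts are read against the 16.3% of all genes called in duodenum and the 4.49% in stomach at the high dose. At the high dose in duodenum, 1 of 21 measured genes of salt and fluid transport rose, Kcne3 at 0.41, a potassium channel subunit (edgeR adjusted p = 0.0108), and 3 fell, the chloride channel gene Clcn2 at -0.55, the bicarbonate transporter gene Slc4a4 at -0.55 and the sodium-proton exchanger gene Slc9a8 at -0.29. The median of the list was -0.24, against -0.02 over all genes. Of 15 genes of glycerol handling 3 fell, all in the breakdown of stored fat, Pnpla2 at -0.43, Abhd5 at -0.42 and Lipe at -0.40, and the median was -0.34. Of 11 genes of the osmotic response 2 fell, the kinase gene Sgk1 at -1.57 and the volume-regulated channel gene Lrrc8a at -0.61, with a median of -0.22. The counts of 4 of 21, 3 of 15 and 2 of 11 are near the share of genes at large. None of 7 genes of the complex that anchors Aqp4 was called there, with a median of -0.14. In stomach at the high dose the salt list had 1 higher of 23, the anion exchanger gene Slc4a9 at 0.97, and 3 lower, among them Slc26a9 at -0.31 and the sodium-potassium-chloride carrier gene Slc12a2 at -0.27, with a median of -0.18. One of the 7 anchoring genes fell, Dag1 at -0.16, which encodes dystroglycan, with a list median of -0.16. The glycerol (15) and osmotic (10) lists had 0 called and medians of -0.03 and -0.09. At the low dose in all tissues, and in liver at both doses, edgeR called no gene at all, and so none of the 4 lists.

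Between control sexes in liver 22.8% of all genes were called, 10.5% higher in females. The glycerol list, which shares its substrate with Aqp9, had 4 of 14 genes higher in control females, Dgat2 at 1.33, Gpam at 0.83, Pnpla2 at 0.57 and Gpd2 at 0.52, and 1 lower, Gpd1 at -0.33. Its median was 0.19, against 0.00 over all genes. The salt list had 3 of 12 higher, Slc4a4 at 1.30, the carbonic anhydrase gene Car2 at 1.25 and Slc26a6 at 0.54. The osmotic list had 2 of 9 higher, the inositol carrier gene Slc5a3 at 1.05 and the betaine carrier gene Slc6a12 at 0.40, and the anchoring list 1 of 6, the syntrophin gene Sntb1 at 2.65.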

How the data were processed

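The values used were estimated (expected) counts per gene and per transcript. The authors deposited these estimated counts as a pair of tables for each tissue. The submitters' processing notes list FastQC 0.12.1, Trim Galore 0.6.10, cutadapt 4.9, UMI-tools 1.1.5, STAR 2.7.11b, Salmon 1.10.3 and MultiQC 1.28, and build mRatBN7.2. What each tool was used for, the annotation and whether strand was used in counting: not given in the sources used here. Reads of overlapping genes may therefore be mixed. Per the labels' protocols, several frozen pieces of tissue were ground together and tissue mass varied.

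Expected counts were rounded to whole numbers. The filter on low counts was filterByExpr (minimum count 10, minimum total 15) in edgeR 4.0.16 and R 4.3.3, and libraries were scaled by TMM. One model per tissue took in all its libraries, with sex and dose combined as groups and batch added. Calls came from the quasi-likelihood test at an adjusted p under 0.05, with the Benjamini-Hochberg adjustment over every gene of the fit. Tissue differences came from 1 such fit of all controls, also with batch; the labels do not state whether a batch number means the same in each tissue. DESeq2 1.42.0 was an alternative. Correlations used log2 CPM (prior count 2). On simulated data with the means of liver, stomach and duodenum, 88%, 96% and 90% of 100 genes changed 2-fold were recovered, and 99%, 100% and 99% of 100 changed 4-fold. Apart from the added change, a simulated gene had the same mean in all libraries, with no differences by batch, sex or cell makeup. The changed genes were drawn at random, so these shares do not give the power for a widely scattered gene such as duodenal Aqp3.

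Named genes were all 8 members, other family genes, the 3 genes most correlated with each member, and up to 4 genes of a list by smallest p. The members and lists were chosen with earlier results of these data known. Some genes that this rule takes in are not reported here.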

Additional observations from a re-analysis of the deposited data

Results flagged for a closer look

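In groups of 6 to 8 libraries, the highest or lowest library of a member was set against the gap that Dixon's test allows. Of 108 groups 7 passed it, and chance gives about 1 in 20. Of these, 2 were in male control duodenum replicate 1, with 136 CPM of Aqp1 against 48.8 to 75.1 CPM in the other male controls, and 0.172 CPM of Aqp8 against 10.2 to 138 CPM. In duodenum, female control replicate 6 had 45.1 CPM of Aqp1 against 65.0 to 82.5 CPM, and female low-dose replicate 2 had 1.04 CPM of Aqp3 against 4.77 to 15.9 CPM. In stomach, female low-dose replicate 3 had 22.8 CPM of Aqp1 against 39.3 to 51.0 CPM, and female control replicate 2 had 2.73 CPM of Aqp5 against 7.92 to 15.1 CPM. In liver, female low-dose replicate 1 had 9.44 CPM of Aqp11 against 5.03 to 6.54 CPM.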

How the results depend on the processing

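The alternatives were DESeq2, its size factors, leaving out the batch term or the low-count filter, only the groups compared, the ribosomal protein share as a covariate, a replicate block, leaving out batch 3 and leaving out each library. The means of enterocyte and parietal markers as covariates were added after seeing the data. Outside the left-out libraries, 536 of 569 values of members kept their direction and call, and 301 of 314 counts of called members stayed the same or nearly the same. The cause of the exceptions was not tested.

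Counts of called members changed as follows. Between liver and stomach controls 7 were called with only the groups compared (84.8% of genes called) against 8 in the main fit, a change taken above as nearly the same. In duodenum at the high dose 1 was called with the enterocyte covariate (Aqp8, log2 0.697), among 2858 genes called. In liver, female against male, 0 were called at the high dose without the batch term and without batch 3 (1461 and 1545 genes), 2 at the low dose with the ribosomal share (2349 genes), and 2 in controls (Aqp8, Aqp9) with DESeq2, only the groups compared and without batch 3 (3204, 2410 and 2662 genes). Sex by low dose gave 1 (Aqp8) under the same 3 (1946, 1939 and 796 genes). In stomach at the high dose 1 was called (Aqp4) with DESeq2 (1025 genes), and in males 1 with DESeq2 and without batch 3 (1384 and 1409 genes).

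Small log2 changes reversed. At the high dose in duodenum Aqp4 became 0.128 and Aqp8 0.00292 (ribosomal share), Aqp8 0.0407 (no batch term) and 0.00544 (without batch 3), and Aqp11 0.00275 (enterocyte). At the low dose Aqp1 became 0.00768 (without batch 3), Aqp4 0.00455 (ribosomal share), and Aqp8 0.369 and Aqp11 0.0733 (enterocyte). Liver minus duodenum for Aqp1 became 0.000279 (no batch term). In liver, female minus male for Aqp5 at the high dose became 0.0328 (replicate block) and 0.166 (without batch 3), for Aqp11 in controls -0.0681 (only the groups compared) and -0.053 (without batch 3), and Aqp11 became 0.0129 at the high dose (no batch term) and -0.0747 at the low dose (without batch 3). In stomach at the high dose Aqp1 became -0.0237 and Aqp3 -0.14 (parietal), and Aqp5 0.0173 (no batch term) and 0.151 (without batch 3). At the low dose there Aqp3 became -0.0317 (parietal) and -0.0412 (without batch 3), and Aqp11 0.00218 (no batch term).

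With libraries left out in turn, duodenum high dose ranged from -0.127 to 0.0856 for Aqp4, -0.237 to 0.168 for Aqp8 and 0 to 2 called. Duodenum low dose ranged from -0.0514 to 0.119 for Aqp1 and -0.137 to 0.0895 for Aqp4. Liver female against male ranged from -0.19 to 0.183 for Aqp5 at the high dose with 0 to 1 called, and had 1 to 2 called at the low dose and in controls. Liver high dose ranged from -0.062 to 0.0356 for Aqp11, and low dose from -0.0345 to 0.0428 for Aqp11, -0.0969 to 0.0368 for Aqp5 and -0.0673 to 0.025 for Aqp8; sex by low dose had 0 to 1 called. Liver minus duodenum ranged from -0.07 to 0.114 for Aqp1, and liver against stomach controls had 7 to 8 members called. Stomach high dose ranged from -0.0168 to 0.165 for Aqp3 and -0.226 to 0.0879 for Aqp5, with 0 to 1 called, also in males. Stomach low dose ranged from -0.11 to 0.0241 for Aqp11.

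Replicate numbers were shared by the groups, but same-numbered libraries did not deviate together in every pair (in duodenum males, high dose and control, correlations from -0.301 to 0.307). With the replicate block no call of a member changed, and duodenal Aqp3 was -0.862 and stomach Aqp4 -0.29 at the high dose. Depth limits members near 3 counts, such as Aqp3 in liver and Aqp8 in stomach.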
